A study of Mus musculus with 6 samples.

Results

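The integrated stress response is the programme by which cells slow general translation and raise the transcription factor ATF4 when amino acids, haem or protein folding fail. Kinases phosphorylate the initiation factor eIF2, and this favours translation of the Atf4 mRNA, so ATF4 is set to a large part at translation and its mRNA level need not follow its activity. ATF4 pairs with C/EBP proteins and induces enzymes of serine, asparagine and mitochondrial folate metabolism as well as aminoacyl-tRNA synthetases, the enzymes that load amino acids onto tRNAs. Activated T cells are known to depend on these enzymes for growth.

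The genes described here are a list of 35 members: 9 stress factors, 6 enzymes of serine, asparagine and one-carbon metabolism, and 20 genes of cytosolic synthetases. Whether each is a target of ATF4 in these cells was not tested. The 35 members were chosen by gene name among the 47643 reference genes of the deposited tables. The tables hold 34 of them under the chosen symbol, and Mars1 is listed as Mars, a RefSeq synonym at the same coordinates. The rule itself is a list of names and holds no measured value, but the list was drawn up with earlier results of these data known.

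RNA was sequenced from natural regulatory T cells (nTregs) of the spleen, 3 libraries per group. Both groups came from C57BL/6 mice of genotype Foxp3-DTR/EGFP, in which the locus of the Treg factor Foxp3 also drives a toxin receptor and a green fluorescent protein. All cells had 2 days of activation with antibodies to CD3 and CD28 and IL-2, and then 6 h with vehicle (DMSO) or with 100 nM EP4 agonist. EP4 is one of the prostaglandin E2 receptors and couples to the stimulatory G protein. GFP-positive cells were sorted before RNA was taken. The labels used here give no age or sex, and do not say whether libraries are separate mice or cultures, and a p-value here weighs a difference only against library-to-library spread, part or all of which may be technical.

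Levels are FPKM (fragments scaled to transcript length and library size), and differences are agonist minus vehicle on the log2(FPKM + 1) scale, which understates the change of low genes. The libraries rest on 4.32 to 5.65 gigabases of aligned sequence. The Treg marker Foxp3 had 132 ± 22.0 FPKM with vehicle and 135 ± 16.6 with the agonist, and Il2ra had 848 ± 69.2 and 850.3 ± 78.1 FPKM (mean ± SD, n = 3 per group). All 8 Treg markers summed to 2062 to 2406 FPKM with vehicle and 2581 to 2669 with the agonist, and the higher sum lay mainly in Ctla4 (242 ± 35.5 against 380 ± 56.7 FPKM) and Tnfrsf18 (479 ± 139 against 737 ± 68.4 FPKM). The 9 myeloid markers summed to at most 1.03 FPKM in any library, and S100a8 and S100a9 were at 0 in all. The 7 B cell markers summed to 6.20 to 6.58 FPKM with vehicle and 3.84 to 6.67 FPKM with the agonist, and 2 of the 7 reached 1 FPKM in a library. The 7 markers of CD8 T and NK cells summed to 6.52 to 7.23 and 6.87 to 9.85 FPKM. The 8 markers of erythroid cells and platelets summed to 2.94 to 8.09 FPKM with vehicle and 1.24 to 4.46 FPKM with the agonist, and their part in the results was not tested. The mitochondrial genome's transcripts made up 4.51 to 6.09% of FPKM with vehicle and 5.88 to 6.80% with the agonist.

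Promoter sequences show which members carry the element that ATF4 and C/EBP proteins recognise. RefSeq promoters (GRCm38.p6, 250 bases before to 50 bases after a start site) were at hand for 28 members. The genes without an entry were Lars, Rars, Cars, Hars, Nars, Vars and Wars. The C/EBP-ATF response element was searched as TGATGNAA on both strands (TTNCATCA in reverse). It was found in 8 of the 28 members, among them Asns, Trib3, Chac1, Gars, Tars, Iars and Yars. Over all 27025 genes with a promoter in the table, 4.51% held it. Windows of 30 bases on the gene's strand are shown for the genes named, to let the element be read in its context, and capitals mark the match. The matches of Asns, Gars, Tars and Chac1 lie 23, 30, 15 and 193 bases before the start site. Those of Trib3, Iars and Yars begin 14, 7 and 3 bases after it.
Asns, chr6:7693214-7693243, minus strand: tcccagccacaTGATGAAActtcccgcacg
Gars, chr6:55037960-55037989, plus strand: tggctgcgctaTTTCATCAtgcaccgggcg
Tars, chr15:11399655-11399684, minus strand: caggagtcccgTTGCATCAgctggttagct
Chac1, chr2:119351038-119351067, plus strand: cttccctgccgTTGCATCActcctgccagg
Trib3, chr2:152344028-152344057, minus strand: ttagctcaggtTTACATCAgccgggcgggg
Iars, chr13:49682126-49682155, plus strand: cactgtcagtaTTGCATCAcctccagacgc
Yars, chr4:129189895-129189924, plus strand: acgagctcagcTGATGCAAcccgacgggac
The full cyclic AMP response element, TGACGTCA, which reads the same on both strands and does not overlap the former, was found in 1 of the 28 members, Ppp1r15a, 12 bases before the start site, and in 2.03% of all genes with a promoter. It is shown since EP4 is known to raise cyclic AMP; use of the element was not measured.
Ppp1r15a, chr7:45526262-45526291, minus strand: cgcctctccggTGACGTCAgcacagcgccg
The E-box CACGTG, bound by MYC and related factors, was in 4 of the 28 members, Farsb, Iars and Tars among them, and in 8.09% of all genes with a promoter. A match of letters is not evidence of binding, and its absence from this window says nothing about a factor.

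After 6 h of EP4 agonist, most enzymes of serine and one-carbon metabolism and most synthetase genes had lower levels than with vehicle, whereas the stress factors did not share this direction. The median log2 difference was -0.34 for the 6 enzymes, -0.29 for 8 synthetases of the multisynthetase complex, -0.24 for 12 free synthetases and 0.04 for 8 tested stress factors, against -0.03 for all 12186 tested genes. Of the 34 members tested, 0 passed limma's test over all genes, where 0.394% of tested genes did (0.345% rose and 0.0492% fell). Whether the role groups differ from each other was not tested. At an unadjusted p under 0.05 there were 14 members, and 1701 of all genes. That member count was 13 on coverage, 9 with quantile normalization and 8 with upper quartile scaling, against 1687, 1529 and 1532 of all genes. With no filter on low values it was 9, against 2253. With 1 library left out it ran from 4 without vehicle replicate 2 to 22 without vehicle replicate 1. Over all genes these fits gave 1033 and 2588. The lowest adjusted p of a member was 0.124, for Vars. With any 1 library left out, limma again called 0 members, while the calls over all genes went from 48 to 133 without vehicle replicate 1 and to between 0 and 5 without any other. Without vehicle replicate 1 the median of the free synthetases was -0.36 and that of the stress factors 0.11, the latter 0.06, 0.08 and 0.07 without vehicle replicate 3, agonist replicate 2 and agonist replicate 3, and with the block 0.08 without pair 2 and 0.02 without pair 3.

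Treating the replicate number as a pairing is an inference from correlations among these 6 libraries, since its meaning is not given. A block picked from the data it is then tested on can make p-values too small. The blocked calls therefore depend on the pairing being real, which was not tested. In the fit with this number as a block 13 members fell and 1 rose. In that fit 10.5% of all tested genes passed: 6.41% fell and 4.09% rose. The 13 were the enzyme genes Phgdh, Psat1, Shmt2 and Mthfd2, and the synthetase genes Eprs, Iars, Kars, Mars1, Rars, Farsa, Farsb, Gars and Vars. Ppp1r15a was the 1 that rose. With quantile normalization as well, 11 fell and 1 rose, Kars and Gars no longer passing (limma, adjusted p = 0.0524 and 0.0514), where 8.18% of tested genes passed, 3.92% lower and 4.26% higher. Over all genes, that normalization moved the lower share of calls from 61.1 to 47.9%. The blocked calls rest on all 3 pairs. Without pair 1 limma called 1 member, Shmt2 (adjusted p = 0.0386), and 241 of the 12186 tested genes. Without pair 2 or pair 3 it called 0 members, and 0 and 1 of all tested genes. Without pair 2 and pair 3, 20 and 21 members had an unadjusted p under 0.05, against 2557 and 2431 of all tested genes.

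**Figure D1:**
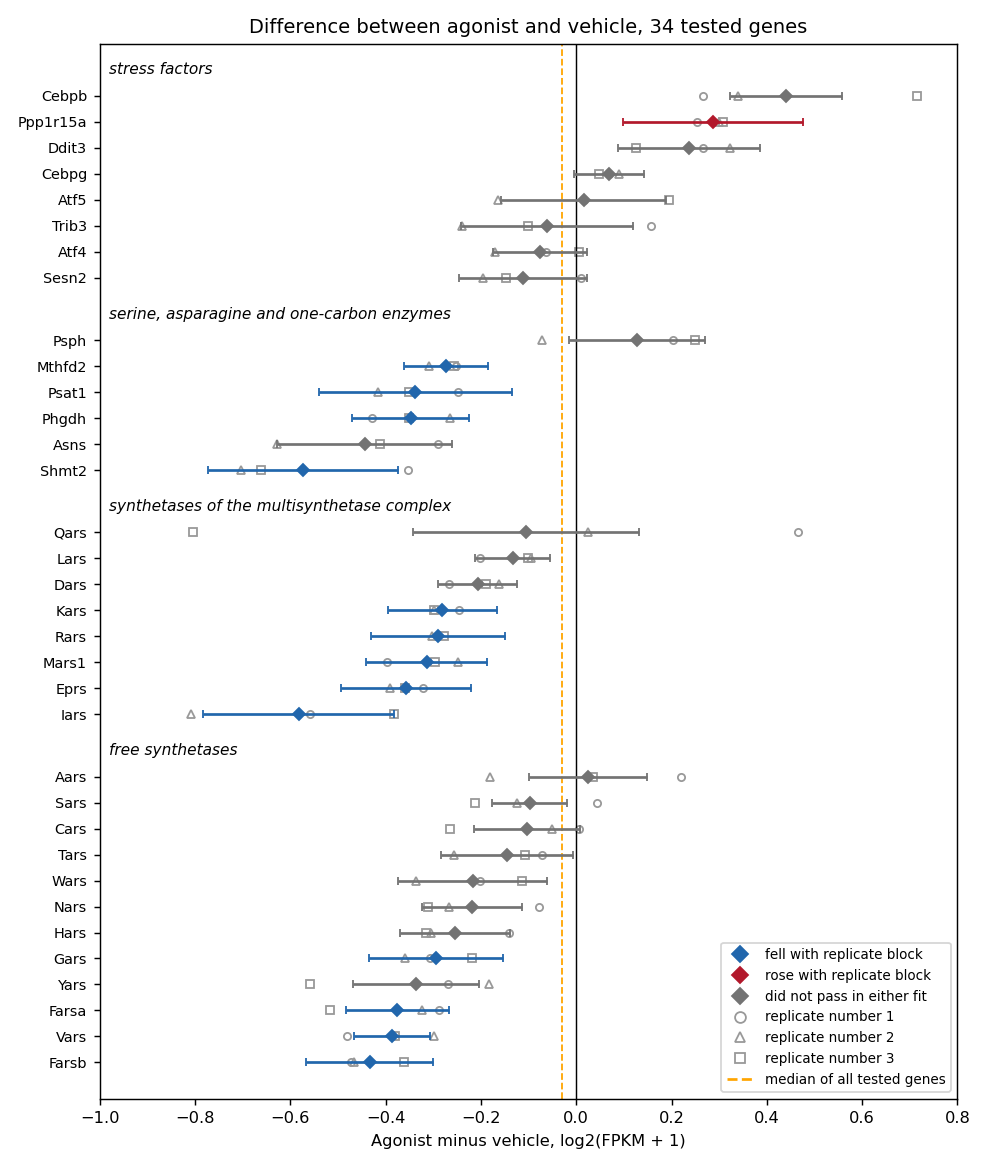
Agonist minus vehicle on the log2(FPKM + 1) scale for the 34 tested members, by role. Diamonds with bars are the difference and its standard error without the block, and open symbols are the differences within each replicate number. Colours mark calls with the replicate block, and the dashed line is the median of all tested genes at -0.03. Of the 34 diamonds 27 lie below 0, against 57.2% of all tested genes.

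Replicate number 1 stood low for these genes in both groups. In 23 of 34 tested members, and in 22.1% of all tested genes, the lowest vehicle level was in replicate 1 and so was the lowest agonist level. For the 20 synthetases the count was 17, and for the 6 enzymes it was 5. For the 8 stress factors it was 1. In Psat1, Shmt2 and Iars, for example, vehicle replicate 1 lay below the highest agonist library, as the grid of levels by library shows. Agonist values were all below vehicle values for 7 members, where 12.1% of tested genes had this separation, and all above them for 2 members, where 7.27% did. Within the numbers, 21 members were lower with the agonist in all 3 pairs (31.6% of tested genes) and 4 were higher in all 3 (20.7%).

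**Figure D2:**
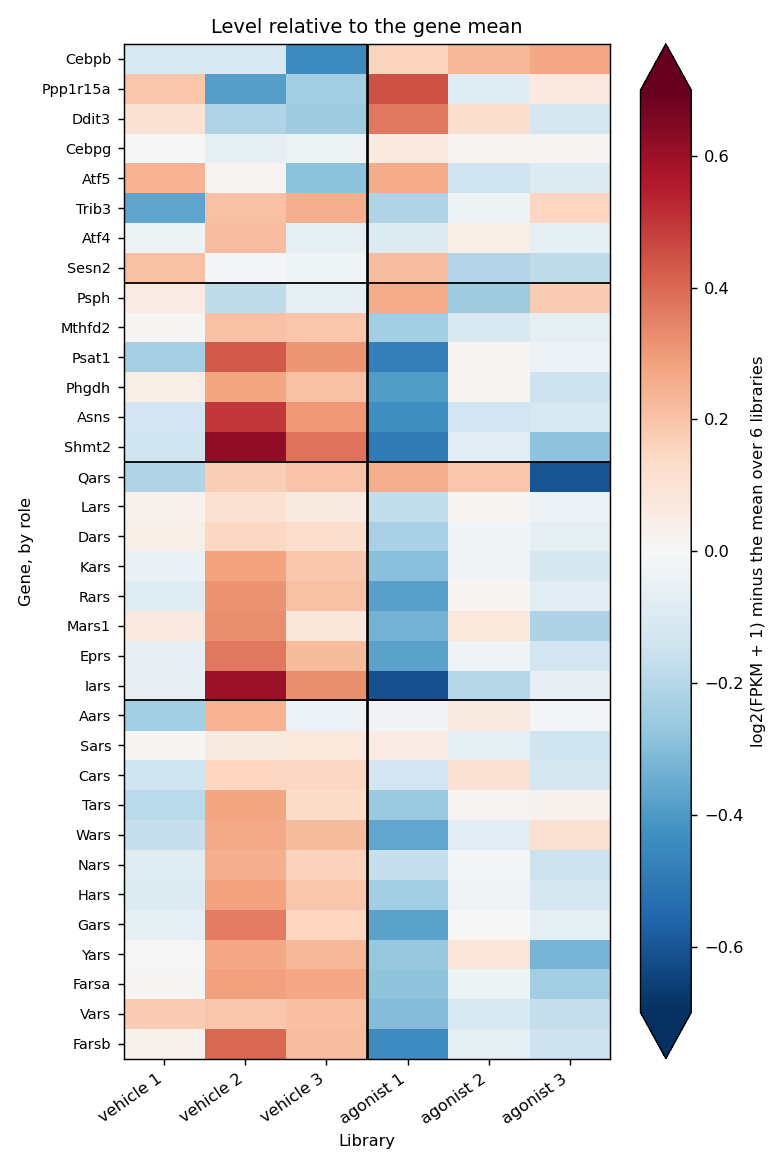
Level of the 34 tested members in each of the 6 libraries, as log2(FPKM + 1) minus the gene's mean over the libraries; rows are ordered by role and by difference, blue is below the gene's mean and red above it. In 17 of the 20 synthetase rows the lowest vehicle and the lowest agonist library both carry the number 1.

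The serine pathway starts with Phgdh, which encodes the dehydrogenase that draws 3-phosphoglycerate out of glycolysis, and it had the highest level of all members. Phgdh (ENSMUSG00000053398.11, chromosome 3, 98313170 to 98339990, mm10) stood at 124, 147 and 140 FPKM in vehicle replicates 1, 2 and 3, and at 92.2, 122 and 109 FPKM in the agonist replicates. All agonist values lay below the lowest vehicle value. The log2 difference was -0.35 (standard error 0.12; limma adjusted p = 0.289, blocked 0.0273).

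Psat1, the aminotransferase of the next step (chromosome 19, 15904678 to 15947337), had 34.2, 54.8 and 50.4 FPKM with vehicle and 28.7, 40.8 and 39.3 with the agonist. Each agonist library was below the vehicle library of its number, but the groups overlapped because vehicle replicate 1 was low. Its log2 difference was -0.34 ± 0.20 (standard error), with an adjusted p of 0.499 that became 0.0284 with the block.

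Psph, the phosphatase that releases serine (chromosome 5, 129765558 to 129787449), did not follow. It had 17.9, 15.1 and 16.4 FPKM with vehicle and 20.8, 14.3 and 19.6 with the agonist, with overlapping groups and an adjusted p of 0.743. Its direction depended on which row of the tables was read. The tables also list loci assembled from each library's own reads, and the locus over Psph had 21.9, 32.3 and 29.7 FPKM with vehicle and 20.8, 25.2 and 19.6 with the agonist. That made a log2 difference of -0.33 in place of 0.13, and neither passed (adjusted p = 0.401 and, with the block, 0.107 for the assembled locus). Psph overlaps Cct6a on the opposite strand.

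Serine is split into glycine and a one-carbon unit by SHMT2 in mitochondria, and MTHFD2 carries that unit on through the folate cycle. Shmt2 (ENSMUSG00000025403.4, chromosome 10, 127517123 to 127522444) had the largest difference of the enzymes. It stood at 41.5, 71.1 and 59.9 FPKM with vehicle and at 32.3, 43.3 and 37.5 with the agonist. Agonist replicate 2 was above vehicle replicate 1, so the groups overlapped, while each pair went down. The log2 difference was -0.57 with a standard error of 0.20 (adjusted p = 0.285, blocked 0.0253).

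Mthfd2 (chromosome 6, 83305691 to 83325908) had 37.1, 42.6 and 42.4 FPKM with vehicle and 31.0, 34.1 and 35.3 with the agonist. Its groups did not overlap. The log2 difference was -0.27 ± 0.09 (standard error), and it was -0.25, -0.31 and -0.26 in pairs 1, 2 and 3 (adjusted p = 0.260, blocked 0.0299).

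Asns, which encodes asparagine synthetase (ENSMUSG00000029752.12, chromosome 6, 7675169 to 7693254), was low in these cells and carries the element shown above just before its start site. It had 2.49, 4.41 and 3.73 FPKM with vehicle and 1.85, 2.50 and 2.56 with the agonist, lower in each pair with overlapping groups. The log2 difference was -0.44 ± 0.18 (standard error). It passed neither without the block (adjusted p = 0.349) nor with it (0.0553).

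**Figure D3:**
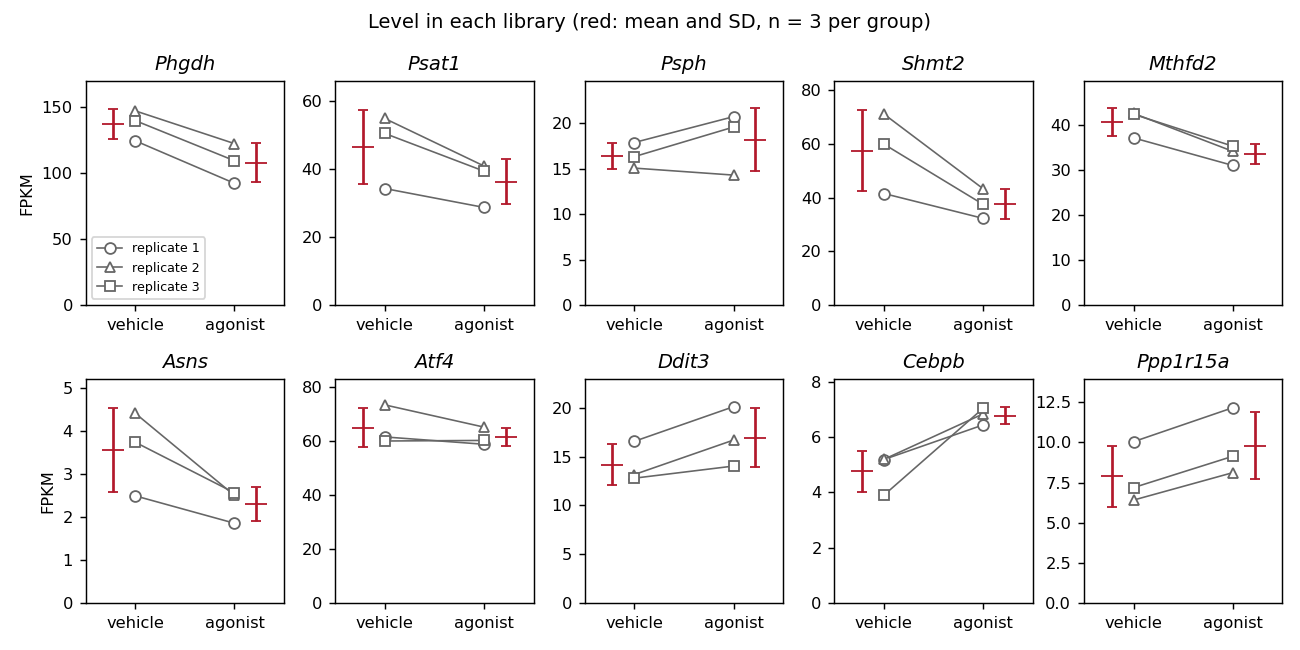
FPKM of the 6 enzyme genes and of 4 stress factor genes in each library; lines join libraries of the same replicate number, and red marks are the mean and SD of 3 libraries per group. Phgdh and Mthfd2 separate between groups, Psat1, Shmt2 and Asns go down in each pair but overlap, and Cebpb is the stress factor plotted here whose groups do not overlap.

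The stress factors showed no common direction. Of the 8 tested 5 had a difference above 0 and 3 below, where 57.2% of all tested genes lay below. Without vehicle replicate 2 the split was 7 above and 1 below, with the block it was 6 and 2 without pair 2, and on the coverage column it was 4 and 4 with a median of -0.0054. Atf4 itself (ENSMUSG00000042406.7, chromosome 15, 80255184 to 80257540) had 61.6, 73.5 and 60.1 FPKM with vehicle and 58.9, 65.3 and 60.3 with the agonist. These ranges overlapped, and the log2 difference was -0.08 (standard error 0.10; limma adjusted p = 0.780, blocked 0.391). As the mRNA of a factor set by translation, this level does not measure ATF4 protein.

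Cebpb, a C/EBP factor that can pair with ATF4 (chromosome 2, 167688915 to 167690418), was the stress factor with the largest difference. It had 5.19, 5.20 and 3.90 FPKM with vehicle and 6.45, 6.85 and 7.05 with the agonist. All agonist values were above all vehicle values. Its log2 difference was 0.44 ± 0.12 (standard error), short of the threshold in both fits (adjusted p = 0.186 unblocked, 0.0669 blocked). Cebpb overlaps Tmem189 on the opposite strand.

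Cebpg, another C/EBP partner of ATF4, was also separated, by a small amount. Its levels were 10.6, 10.1 and 10.4 FPKM with vehicle and 11.2, 10.8 and 10.7 with the agonist, a log2 difference of 0.07 (adjusted p = 0.719, blocked 0.417).

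Ppp1r15a encodes GADD34, the phosphatase subunit that removes phosphate from eIF2 and so ends the response. At chromosome 7, 45522922 to 45526268, it had 10.05, 6.41 and 7.19 FPKM with vehicle and 12.2, 8.12 and 9.14 with the agonist. Replicate 1 was highest in both groups, the groups overlapped, and each pair went up by a like amount, 0.25, 0.30 and 0.31 on the log2 scale. The difference was 0.29 with a standard error of 0.19 without the block (adjusted p = 0.538) and 0.05 with it (adjusted p = 0.0393). On assembled loci it was 0.23, and it did not pass with the block (adjusted p = 0.0803).

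Ddit3, which encodes the stress factor CHOP, went the same way in each pair but missed the threshold. It had 16.6, 13.2 and 12.8 FPKM with vehicle and 20.1, 16.7 and 14.0 with the agonist (adjusted p = 0.522, blocked 0.0699). Ddit3 and Mars1 overlap on opposite strands, and the strand setting of the counting is not given in the sources used here. The deposited values of the 2 genes went in opposite directions. Opposite-strand overlaps also touch Hars (Hars2), Atf5 (Nup62 and Il4i1) and Lars (the pseudogene Rps19-ps4).

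The other tested stress factors differed by less than their spread. Trib3, a pseudokinase that restrains ATF4 and CHOP, had 11.8 ± 2.84 FPKM with vehicle and 11.1 ± 1.53 with the agonist (mean ± SD, n = 3 per group). Sesn2, an inhibitor of mTORC1 signalling, had the lowest difference of the group, -0.11 (adjusted p = 0.763), with 13.9, 11.8 and 11.7 FPKM with vehicle and 14.0, 10.2 and 10.4 with the agonist. Atf5, a relative of ATF4 tied to mitochondrial stress, had 3.02 ± 0.723 and 3.05 ± 0.633 FPKM. Chac1, a glutathione-degrading enzyme that is a well-known ATF4 target, was too low to be tested, with 0.136, 0.203 and 0.276 FPKM in the vehicle libraries and 0.382, 0.227 and 0.361 FPKM in the agonist libraries.

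Cytosolic synthetases had nearly all 1 direction. Of 20 genes, 19 had a difference below 0, where 57.2% of all tested genes did, and Aars was the exception. On the coverage column the count was again 19 of 20, but with Qars above 0 and Aars below. By sample the median of the 20 was 29.4, 37.7 and 36.0 FPKM in vehicle replicates 1, 2 and 3, and 24.2, 30.8 and 30.6 FPKM with the agonist. The median difference was -0.26, -0.28 and -0.30 in pairs 1, 2 and 3. In bulk libraries, lower RNA per cell and fewer cells that hold the RNA cannot be told apart.

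Among the synthetases held in the multisynthetase complex, the assembly that joins several of these enzymes, Iars had the largest difference. Iars loads isoleucine (ENSMUSG00000037851.13, chromosome 13, 49682100 to 49734267) and had 12.4, 20.3 and 16.5 FPKM with vehicle and 8.13, 11.2 and 12.5 with the agonist. The groups met at vehicle replicate 1 and agonist replicate 3. Its log2 difference was -0.58 ± 0.20 (standard error; adjusted p = 0.281, and 0.0301 with the block).

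Eprs, the fused enzyme for glutamate and proline (ENSMUSG00000026615.14, chromosome 1, 185363044 to 185428360), had 26.2, 35.5 and 32.0 FPKM with vehicle and 20.7, 26.8 and 24.7 with the agonist. Its differences of -0.32, -0.39 and -0.36 in the 3 pairs lay close together. Its adjusted p came to 0.317, and in the blocked fit to 0.0210.

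Rars, for arginine, had 32.7, 43.5 and 40.3 FPKM with vehicle and 26.5, 35.1 and 33.0 with the agonist. Kars, for lysine, had 69.6, 87.6 and 81.9 against 58.5, 71.0 and 66.4 FPKM. Mars1, for methionine, had 19.9, 24.0 and 20.1 against 14.9, 20.1 and 16.2 FPKM. In each of these 3 genes every pair went down and the groups overlapped. Their log2 differences were -0.29, -0.28 and -0.31, and the blocked fit gave adjusted p-values of 0.0255, 0.0275 and 0.0334, against 0.415, 0.342 and 0.337 without it.

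Dars and Lars, for aspartate and leucine, separated between groups with small differences. Dars had 42.3, 45.5 and 44.8 FPKM with vehicle and 34.9, 40.6 and 39.2 with the agonist, a log2 difference of -0.21 (adjusted p = 0.334, blocked 0.0555). Lars had 17.9, 18.9 and 18.3 against 15.4, 17.7 and 17.0 FPKM, a log2 difference of -0.13 (adjusted p = 0.495, blocked 0.155).

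Qars, for glutamine, was the irregular member of the complex. It had 39.6, 52.0 and 53.0 FPKM with vehicle and 55.0, 52.9 and 29.9 with the agonist, so that agonist replicate 3 was lowest. Its pairs went in different directions, 0.46, 0.02 and -0.80 on the log2 scale, and the adjusted p was 0.887. The assembled locus over Qars had 83.7, 52.0, 53.0, 55.0, 52.9 and 81.6 FPKM in the same order of libraries. It was within 10% of the gene's own row in the other 4 libraries, and much higher in vehicle replicate 1 and agonist replicate 3, the libraries with the lowest values of the gene's own row. In vehicle replicate 1 that locus ran far beyond the gene, with a reciprocal overlap of 15.7%.

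**Figure D4:**
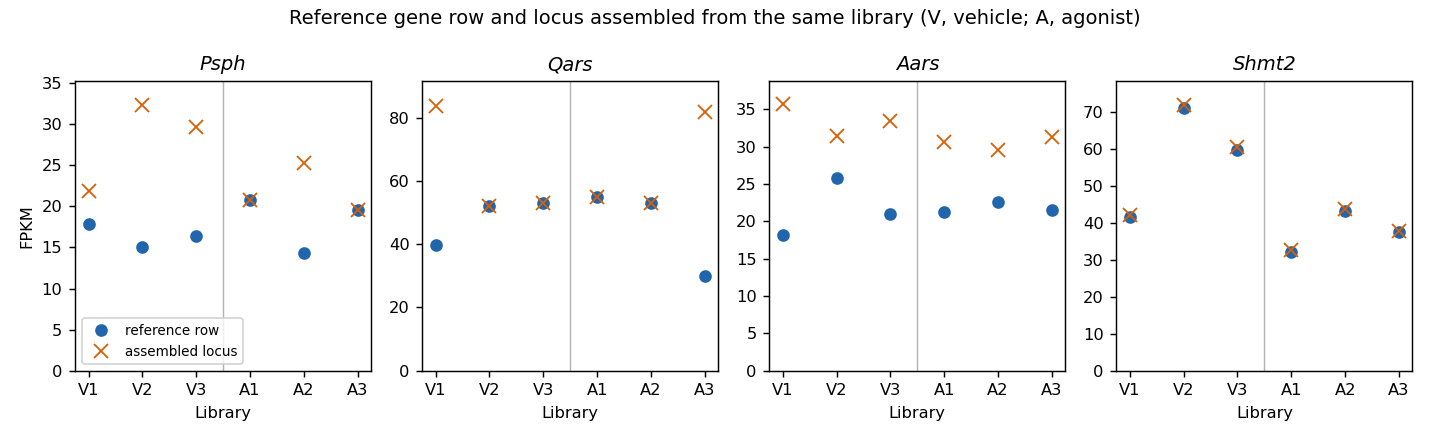
FPKM of the reference gene row (dots) and of the locus assembled over the gene from the same library (crosses) for Psph, Qars, Aars and Shmt2 in vehicle libraries V1 to V3 and agonist libraries A1 to A3. The 2 estimates meet for Shmt2 in all libraries and part for Psph, Qars and Aars in some or all of them.

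Of the free synthetases, Farsb and Farsa encode the subunits of 1 enzyme, which loads phenylalanine, and both fell with the block. Farsb (ENSMUSG00000026245.16, chromosome 1, 78417975 to 78488897) had 19.3, 25.2 and 22.0 FPKM with vehicle and 13.6, 17.9 and 16.9 with the agonist. Farsa (chromosome 8, 84856989 to 84869257) had 26.3, 32.1 and 31.8 against 21.3, 25.4 and 21.9 FPKM. Neither gene had overlapping groups. Their log2 differences were -0.43 ± 0.13 and -0.38 ± 0.11 (standard error), with adjusted p-values of 0.231 and 0.210 that became 0.0194 and 0.0334 with the block. Farsa overlaps the microRNA gene Mir7069 on its strand.

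Vars, for valine (ENSMUSG00000007029.16, chromosome 17, 35000987 to 35016322), had the lowest adjusted p of all members without the block. It had 83.1, 84.1 and 85.2 FPKM with vehicle and 59.2, 68.1 and 65.2 with the agonist, with a wide gap between the groups. The vehicle libraries lay close together here, including replicate 1. The log2 difference was -0.39 ± 0.08 (standard error), the adjusted p 0.124, and 0.0245 with the block.

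Gars, for glycine, had 32.6, 44.0 and 38.1 FPKM with vehicle and 26.1, 34.1 and 32.6 with the agonist, lower in each pair with overlapping groups (adjusted p = 0.405, blocked 0.0337). Aars, for alanine, went with no pair pattern: 18.2, 25.8 and 21.0 FPKM with vehicle and 21.3, 22.7 and 21.5 with the agonist (adjusted p = 0.953). Its assembled locus was higher in each library, 33.5 ± 2.16 FPKM with vehicle and 30.5 ± 0.903 with the agonist, and gave a log2 difference of -0.13 in place of 0.02.

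The remaining 7 free synthetases, Cars, Hars, Nars, Sars, Tars, Wars and Yars, had log2 differences from -0.34 for Yars to -0.10 for Sars and passed in neither fit on the gene rows. With the block their adjusted p ran from 0.0526 for Hars to 0.388 for Cars. On assembled loci Hars and Yars fell with the block (adjusted p = 0.0291 and 0.0487), among 14 of 30 members that did, where 11.7% of 10344 tested genes passed, 7.2% lower and 4.49% higher; 0 members rose. Of those 14, 12 had also been called on the gene rows. Both kinds of row come from the same reads and often hold like values, so this overlap of calls is not a second measurement. Wars, which loads tryptophan and is known as an interferon-induced gene, had 31.6 ± 5.04 FPKM with vehicle and 27.1 ± 4.53 with the agonist (SD, n = 3 per group). Gene rows and assembled loci were within 10% of each other in every library for 24 members. Among these, Psat1 and Cebpg had loci that matched the gene's span poorly and were left out of the fit on assembled loci. Their reciprocal overlap was 47.8% for Psat1, and 28.6 and 27.5% for Cebpg in vehicle replicates 1 and 2.

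Genes that neighbour the members in the pathway were read from lists compiled for comparison. Over all tested genes, the shares to read them against were 14.0% at an unadjusted p under 0.05, 10.5% passing with the block (6.41% lower and 4.09% higher) and 57.2% with a difference below 0. Of 17 mitochondrial synthetases, 0 passed in limma's fit without the block (3 at an unadjusted p under 0.05, against 14.0% of all tested genes) or with it. Their median log2 difference was -0.15, and 13 of 17 were below 0 (57.2% of all tested genes were). Ears2, for glutamate, had the largest, with 2.41 ± 0.434 FPKM for vehicle and 1.70 ± 0.113 for the agonist (SD, n = 3 each; adjusted p = 0.326, blocked 0.0929). Whether cytosolic and mitochondrial synthetases differ from each other was not tested.

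Among the 3 scaffold genes of the multisynthetase complex, Aimp2 fell with the block, from 21.5 ± 3.24 to 16.0 ± 2.16 FPKM (adjusted p = 0.260, blocked 0.0210); it overlaps Eif2ak1 on the opposite strand. Aimp1 and Eef1e1 passed in neither fit.

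Of 13 tested genes of the wider serine and one-carbon cycle, 0 passed without the block. At an unadjusted p under 0.05 there were 4, or 30.8%, against 14.0% of all tested genes. With the block 6 fell and 0 rose, where 6.41% and 4.09% of all tested genes did. These were Shmt1, Mthfd1, Tyms, Mat2a, Ahcy and Sfxn1. Mthfd1, the cytosolic folate enzyme with several activities, fell from 27.0 ± 6.21 to 17.1 ± 3.03 FPKM with the block (adjusted p = 0.0166). Shmt1, the cytosolic counterpart of Shmt2, fell from 14.4 ± 3.43 to 9.76 ± 2.50 FPKM (0.0167), and Ahcy, which clears S-adenosylhomocysteine, from 123 ± 41.7 to 70.5 ± 17.4 FPKM (0.0174). Sfxn1, a mitochondrial serine transporter, fell from 29.0 ± 7.27 to 21.7 ± 5.18 FPKM (0.0191). Tyms, which makes thymidylate, and Mat2a, which makes S-adenosylmethionine, had a blocked adjusted p of 0.0486 and 0.0479, and with quantile normalization as well of 0.0791 and 0.0709.

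Genes that act upstream, the eIF2 kinases, eIF2 itself and its exchange factor eIF2B, had 0 calls among 15 without the block (2 at an unadjusted p under 0.05, a share near the 14.0% of all tested genes) and 3 with it, all lower, where 6.41% of all fell: Eif2s1, Eif2b1 and Eif2b3. Eif2b3 went from 6.87 ± 0.658 to 4.67 ± 0.737 FPKM (adjusted p = 0.176, blocked 0.0345). Eif2s1 and Eif2b1 had a blocked adjusted p of 0.0360 and 0.0418, and did not pass with quantile normalization as well (0.0585 and 0.0577). Eif2ak4, which encodes the amino acid sensor GCN2, had 3.66 ± 0.191 and 3.62 ± 0.268 FPKM, and Eif2ak3, the sensor PERK of the endoplasmic reticulum, 7.17 ± 0.666 and 8.54 ± 1.76 FPKM.

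The list of further ATF4 targets, 16 of 28 genes tested, split in both directions. Aldh18a1, an enzyme of proline synthesis, rose without the block from 43.6 ± 0.679 to 66.5 ± 3.43 FPKM (limma adjusted p = 0.0267). It was the call of this list in that fit, where 0.345% of all tested genes rose and 0.0492% fell. Aldh18a1 overlaps Gm15801 on its strand. With the block Aldh18a1, Ddit4, Gpt2 and Jdp2 rose, and the amino acid transporter genes Slc7a5, Slc7a1 and Slc1a5 fell, where 4.09% of all tested genes rose and 6.41% fell. Ddit4, an inhibitor of mTORC1, went from 54.8 ± 11.7 to 72.1 ± 10.4 FPKM (0.0227 with the block), and Jdp2, a partner of AP-1 factors, from 5.67 ± 0.660 to 8.61 ± 0.499 FPKM (0.0253). Gpt2, a mitochondrial alanine aminotransferase, had a blocked adjusted p of 0.0450, and of 0.0524 with quantile normalization as well. Slc7a5, the large neutral amino acid transporter, fell from 22.7 ± 5.87 to 13.7 ± 3.32 FPKM with the block (0.0142), Slc1a5, a glutamine transporter, from 61.6 ± 5.10 to 49.3 ± 2.20 FPKM (0.0295), and Slc7a1, a carrier of cationic amino acids, from 16.2 ± 2.25 to 13.2 ± 1.59 FPKM (0.0340). The other 12 genes of the list, Slc7a11, Fgf21 and Gdf15 among them, were too low to test. At an unadjusted p under 0.05 there were 6 of the 16, or 37.5%, against 14.0% of all tested genes. The median over the 16 was -0.03, as over all tested genes, with 8 differences below 0 and 8 above.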

How the data were processed

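RNA was sequenced in 6 libraries, 3 per group, from stranded, poly(A)-based preparations, per the labels' protocols. Per the file headers, the authors deposited FPKM and coverage for each feature of each library. Trim Galore, HISAT2 and the build mm10 are named in the submitters' processing notes. The quantification program, annotation release and strand option were not given in the sources used here. FPKM values were used as deposited, and rows with the same identifier were summed. The coverage signal deposited by the authors served as an alternative and to estimate aligned bases. Fragment counts are not in these columns, so no interval for counting error is given. Each table also lists loci assembled from its own library, and these were used as an alternative added after seeing the data. A gene entered the fit on assembled loci only where a locus on its strand had a reciprocal overlap of at least 0.5 in every library. Reciprocal overlap is the smaller of the fractions of the gene and of the locus that are shared. Of the tested members, Atf5, Cebpg, Psat1 and Qars did not enter.

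The 12186 reference genes that reached 1 FPKM in 3 or more of the libraries were tested on log2(FPKM + 1) with limma 3.58.1 (intensity trend, robust variances, statmod 1.5.0, R 4.3.3), Benjamini-Hochberg adjustment over all of them and a threshold of 0.05, two-sided. Of the 35 members 34 were tested. Tables were handled with Python 3.11.15, pandas 2.3.3, numpy 2.4.6 and matplotlib 3.10.9.

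Deviations from the group means correlated at 0.512, 0.404 and 0.321 for libraries that share the replicate number 1, 2 and 3, and at -0.353 to 0.002 for other pairs, and on this ground the number was treated as a pairing. The labels do not say what the number stands for, and a block chosen from the same libraries favours smaller p-values. "Rose" and "fell" mean past the threshold in the fit named.

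The members and lists were chosen with earlier results of these data known. Library values are printed for members called in either fit, members whose groups do not overlap, and the highest and lowest difference of each role. Atf4, Ddit3, Chac1 and Asns were added to these after their values were seen, as were means for Trib3, Atf5 and Wars, and for Eif2ak3 and Eif2ak4 among the listed pathway genes. Of the pathway lists, genes called in either fit are named, or else the largest difference. The promoter window of 1 member is not reported here.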

Additional observations from a re-analysis of the deposited data

How the results depend on the processing

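With other settings the 34 members tested kept 0 calls without the replicate block under pseudocount 0.1, no filter, an FPKM of at least 5, upper quartile scaling, quantile normalization, coverage, assembled loci (30 members) and each library left out. With the replicate block 14 members were called, 12 with quantile normalization as well, 14 on assembled loci, and 0 to 1 with a pair left out. Over all genes 48 were called, 2 with no filter, 75 with upper quartile scaling, 82 on coverage, 31 on assembled loci, 1279 with the replicate block, 997 with quantile normalization as well, 1209 on assembled loci with the block, 0 to 133 with a library left out, and 0 to 241 with the block and a pair left out. The median difference of the enzymes was -0.28 with quantile normalization, with or without the block, and -0.48 to -0.23 with a library or pair left out. For synthetases of the complex it was -0.24 with upper quartile scaling, -0.22 with quantile normalization, with or without the block, and -0.37 to -0.21 with a library or pair left out. For free synthetases the last range was -0.36 to -0.16. The sign held in all settings for 28 of 34 members. It changed for Atf5 on coverage (-0.014), Psph on coverage (-0.15) and assembled loci (-0.33, with or without the block), Qars on coverage (0.019) and Aars on coverage (-0.076) and assembled loci (-0.13, with or without the block). With 1 library left out the difference ran from -0.13 to 0.013 for Atf4, -0.12 to 0.14 for Atf5, -0.26 to 0.051 for Trib3, -0.26 to 0.17 for Qars and -0.089 to 0.15 for Aars. With 1 pair left out and the block it ran from -0.074 to 0.11 for Atf5, -0.17 to 0.027 for Trib3, -0.39 to 0.24 for Qars and -0.073 to 0.13 for Aars. Apart from the way each setting is built, the cause was not tested. A fit on 2 libraries of a group and 3 of the other, or on 2 pairs, has fewer degrees of freedom. Asns, Atf5 and Chac1 had the lowest levels of the members, and depth limits the precision there.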
